A study of Mus musculus with 5 samples.

Results

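The 6 integrin genes described here encode the αv subunit (Itgav), 4 β subunits that pair with it (Itgb3, Itgb5, Itgb6 and Itgb8), and the β4 subunit (Itgb4). They were chosen by symbol from the 31053 genes of the deposited feature list, and all 6 were found. Their RNA was counted in viable lung cells of adult mice, sorted as negative for CD45 and Ter119 so that most blood cells were removed. The samples were 5 droplet libraries, 1 for each condition, and each pooled the cells of 3 mice that carried separate hashtag antibodies. Itgb1 fl/fl mice carried floxed alleles of Itgb1, the gene of β1 integrin, and served as controls. Itgb1 iKO mice carried the same floxed alleles with the SP-C rtTA and TetO-Cre transgenes, so that doxycycline had switched on Cre in cells using the SP-C promoter, which in the adult lung are chiefly the surfactant-making alveolar type 2 (AT2) cells. The mice received LPS, a bacterial product that injures the lung, through the trachea, or PBS. The groups were Itgb1 fl/fl 7 days after LPS, Itgb1 iKO 7 days after LPS, Itgb1 iKO 7 days after PBS, and Itgb1 fl/fl and Itgb1 iKO 21 days after LPS. The day 21 suspensions had EPCAM-positive cells added, so the sort and the time point cannot be told apart. All mice of a condition share a library, so condition and library also cannot be told apart.

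Integrins are pairs of an α and a β subunit that span the cell membrane and tie the matrix outside the cell to the actin cytoskeleton within it. The αv subunit forms receptors for proteins with an Arg-Gly-Asp sequence, such as vitronectin, fibronectin and the latency peptide that keeps TGF-β inactive. αvβ6 is known as an epithelial activator of TGF-β, αvβ8 as an activator on fibroblasts and other cells, αvβ5 as a vitronectin receptor, and αvβ3 as a receptor of endothelial cells and platelets. β4 pairs with α6, binds laminin and joins keratin filaments to the basement membrane through hemidesmosomes. The study asked how loss of β1 integrin from AT2 cells alters alveolar repair, and these genes encode other RGD and laminin receptor subunits. In LPS-treated lungs lacking β1 in AT2 cells, the paper reports more αv integrin protein, β5 and β8 above all, and proposes compensation. That result is protein in lung tissue, while the levels here are RNA in gated cells, so they do not test it.

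Itgav (ENSMUSG00000027087) lies on GRCm38 chromosome 2 from 83724397 to 83806916, Itgb6 (ENSMUSG00000026971) on chromosome 2 from 60598292 to 60722643, and Itgb5 (ENSMUSG00000022817) on chromosome 16 from 33829665 to 33949338. Itgb3 (ENSMUSG00000020689) and Itgb4 (ENSMUSG00000020758) lie on chromosome 11, from 104608000 to 104670476 and from 115974709 to 116008412, and Itgb8 (ENSMUSG00000025321) lies on chromosome 12 from 119158022 to 119238802. Itgav and Itgb4 overlap non-coding genes on the opposite strand, and whether the counting used strand is not given in the sources used here. The 200 bases from 250 to 51 before the RefSeq start (GRCm38.p6) are shown for the 3 members that carry the differences between cell types below. They are printed 5′ to 3′ on the gene's strand in lower case, with capitals for the matches of a motif search. RefSeq promoters matched 4 of the 6 members, and the window of Itgb8 is not shown because it lies within its annotated first exon.
Itgav, chr2:83724147-83724346, plus strand: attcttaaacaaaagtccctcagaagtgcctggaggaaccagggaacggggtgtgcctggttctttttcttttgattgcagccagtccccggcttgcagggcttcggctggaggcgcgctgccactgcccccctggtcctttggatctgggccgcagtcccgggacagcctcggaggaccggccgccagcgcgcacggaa
Itgb5, chr16:33829415-33829614, plus strand: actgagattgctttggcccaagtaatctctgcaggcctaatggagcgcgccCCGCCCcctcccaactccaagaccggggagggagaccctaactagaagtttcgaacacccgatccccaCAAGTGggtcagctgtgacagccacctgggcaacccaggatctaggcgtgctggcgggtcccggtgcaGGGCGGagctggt
Itgb6, chr2:60722654-60722853, minus strand: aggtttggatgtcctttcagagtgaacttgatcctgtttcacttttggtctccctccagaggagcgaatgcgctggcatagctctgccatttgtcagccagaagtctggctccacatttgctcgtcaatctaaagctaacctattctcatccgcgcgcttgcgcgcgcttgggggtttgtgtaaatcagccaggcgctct

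The windows of Itgav and Itgb5 are GC-rich, at 63% and 62.5% with 13 and 10 CpG, and that of Itgb6 has 52% with 10 CpG. The medians over all 32851 promoters of that length are 51.5% and 4. Both strands were searched for 6 motifs, which were the GC box (GGGCGG), the TATA box (TATAAA), AP-1 (TGACTCA), TEAD (GGAATG), NKX2-1 (CACTTG) and ETS (CCGGAAG). The shares of all promoters that hold them are 24.6%, 9.14%, 3.61%, 10.7%, 9.75% and 3.98%, in that order. Itgb5 held GC box letters at 199 and 63 bases before the start and the letters of the NKX2-1 motif, on the opposite strand, at 131 bases. The windows of Itgav and Itgb6 held none of the 6. A match describes letters only, and none of the windows was measured for binding here.

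The libraries held 2224 to 8671 cells after filtering and 8360954 to 29128331 UMIs, each UMI standing for 1 captured RNA molecule, with medians of 2219 to 5330 per cell. Cells were gated on genes other than the members. The AT2 gate needed Sftpc at 5% or more of a cell's UMIs and 1 or more UMIs of Epcam, with Cdh5, Pecam1 and Col1a2 at 0. The endothelial gate needed 2 or more UMIs of Cdh5 and Pecam1 together, with Epcam and Col1a2 at 0. The mesenchymal gate needed 2 or more UMIs of Col1a2, with Cdh5, Pecam1 and Epcam at 0. Sftpc was not limited in the endothelial and mesenchymal gates. The AT2, endothelial and mesenchymal gates held 1916, 21327 and 1547 cells. In the AT2 gate all 8 independent AT2 markers were detected in every library and summed to 50693 to 59582 CPM (counts per 1000000 UMIs). In the endothelial gate 7 endothelial markers summed to 10271 to 13673 CPM, and in the mesenchymal gate 6 mesenchymal markers summed to 15048 to 31832 CPM, so each gate held the markers it was named for. The 8 AT2 markers were also detected in the endothelial gate, and in the order fl/fl LPS, iKO LPS and iKO PBS at day 7, and fl/fl and iKO at day 21, they summed there to 803, 1130, 255, 652 and 3120 CPM. In the mesenchymal gate these markers summed to 291, 365, 86.7, 289 and 1543 CPM in the same order. After PBS 5 of the 8 were detected there. In the AT2 gate 4 club cell markers summed to 2335, 839, 218, 157 and 357 CPM, with 4, 4, 2, 3 and 4 detected. These sums differed between the conditions compared, and their part in the results of the gates was not tested. Sex differed between the libraries. All 3 day 7 LPS Itgb1 fl/fl mice expressed Xist and all 3 day 7 LPS Itgb1 iKO mice expressed Y-linked genes, so genotype and sex cannot be told apart at day 7. Of the PBS mice, 1 expressed Xist and 2 expressed Y-linked genes. Day 21 Itgb1 fl/fl mouse 1 had Xist at 92.5 CPM together with Y-linked genes at 83.2 CPM, and the fits of day 21 were repeated without it. Of the other day 21 mice, both Itgb1 fl/fl mice and Itgb1 iKO mouse 1 expressed mainly Xist and Itgb1 iKO mice 2 and 3 mainly Y-linked genes, so sex leaned with genotype there too. Pairs of libraries shared 15 to 102 cell barcodes after filtering. The PBS library gave 26 AT2 gate cells, with 4, 2 and 9 for its tagged mice, and only mouse 3 entered the AT2 fit. Its mesenchymal gate likewise rests on mouse 1 with 7 cells, and each lone mouse is assumed to vary like the other groups.

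Levels below are in CPM, from the UMIs of a gene over those of all genes in the cells of a gate. Intervals of such levels cover counting error only. Values after ± are SDs over mice for CPM and standard errors for log2 fold changes. Adjusted p-values are from edgeR's quasi-likelihood test on sums per mouse, adjusted over all genes tested, and a gene was called at 0.05. Fewer cells of a type and less RNA per cell cannot be told apart where a gate mixes cell types.

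Itgb1, the deleted gene, was examined first. In the AT2 gate it stood at 258, 235 and 305 CPM in the day 7 LPS Itgb1 fl/fl mice and at 214, 150 and 193 CPM in the Itgb1 iKO mice (266 ± 35.7 and 186 ± 32.5 CPM, n = 3 each). The groups did not overlap, and the log2 fold change was −0.65 ± 0.18 (adjusted p = 0.080). At day 21 the levels were 356, 319 and 372 CPM against 141, 178 and 146 CPM, and Itgb1 fell by 1.29 ± 0.12 on the log2 scale (adjusted p = 1.14e-07). Without the mouse with RNA of both sexes the Itgb1 log2 fold change was −1.28 ± 0.13. In the endothelial gate, whose cells lie outside the SP-C lineage, its fold changes were 0.01 ± 0.17 and 0.12 ± 0.10 (adjusted p = 0.98 and 0.70). The 5′ kit reads the start of the transcript, and which part of Itgb1 is deleted is not given in the sources used here, so remaining UMIs do not measure undeleted gene copies.

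Each member had its own pattern over the 3 cell compartments. Itgav was found in all of them, Itgb5 in endothelial and mesenchymal cells, Itgb6 in epithelial cells and Itgb8 in mesenchymal cells, while Itgb3 and Itgb4 were low in each. A fit with the mouse as a block covered the 12 mice with enough cells in every gate. All 12 had received LPS, while the pooled levels below also include the PBS library. The fit tested 10126 genes, and Itgav, Itgb5, Itgb6 and Itgb8 passed its filter on low counts. Of these 4 members, 3 were called between the AT2 and endothelial gates (percent called over all genes 69.7), 3 between the AT2 and mesenchymal gates (59.5) and 3 between the mesenchymal and endothelial gates (58.4). Most genes differ between such cells, and these counts do not set the members apart.

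Itgav, the subunit shared by every αv receptor, had pooled levels of 74.3 CPM in the mesenchymal gate (95% interval 68.3 to 80.7), 56.8 CPM in the AT2 gate (53.3 to 60.5) and 30.0 CPM in the endothelial gate (28.6 to 31.5). It was higher in the AT2 than in the endothelial gate by a log2 fold change of 1.42 ± 0.13 (adjusted p = 1.28e-12) and higher in the mesenchymal than in the endothelial gate by 1.24 ± 0.15 (adjusted p = 1.01e-09). Between the AT2 and mesenchymal gates Itgav was not called (0.18 ± 0.15 for AT2 over mesenchymal, adjusted p = 0.34), and this fit on scaled sums per mouse has the opposite sign to the pooled CPM. Among finer gates, its level was highest in 49 epithelial cells with UMIs of the AT1 markers Ager, Rtkn2, Col4a3 and Akap5, at 229 CPM (178 to 291). In 89 epithelial cells positive for Krt8 and Cldn4 it was 121 CPM (99.4 to 146). Both genes are known from a transitional alveolar state, but this gate overlaps the AT2 gate and leaves out no airway or AT1 marker cells. Which cell types it holds was not tested. Pericyte marker cells (92.8 CPM), mesothelial cells (87.9 CPM), smooth muscle marker cells (77.9 CPM), lymphatic endothelial cells (75.6 CPM), adventitial marker cells (72.5 CPM) and alveolar fibroblast marker cells (66.2 CPM) followed, and each overlapped its neighbour in its interval. Club cells (37.0 CPM), arterial cells (34.7 CPM), Car4 and Gpihbp1 capillary cells (33.9 and 27.9 CPM) and ciliated cells (24.6 CPM) were lower, again with overlap between neighbours.

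Itgb5 separated the compartments in another order. Its level was 249 CPM in the mesenchymal gate (237 to 260), 108 CPM in the endothelial gate (105 to 111) and 4.14 CPM in the AT2 gate (3.23 to 5.23). It was lower in the AT2 gate than in the endothelial gate by a log2 fold change of −3.90 ± 0.27 (adjusted p = 1.70e-16) and than in the mesenchymal gate by −5.44 ± 0.27 (adjusted p = 1.16e-20), and mesenchymal cells lay above endothelial cells by 1.54 ± 0.16 (adjusted p = 4.96e-11). Among stromal cells it was 263 CPM in alveolar fibroblast marker cells, 226 CPM in pericyte marker cells, 194 CPM in smooth muscle marker cells, 166 CPM in adventitial marker cells and 69.4 CPM in mesothelial cells. Fibroblasts, pericytes and smooth muscle cells thus all held it, and neighbours in this order overlapped in their intervals except mesothelial cells, which lay below the rest.

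Within the endothelial gate, Itgb5 was highest in capillary cells that express Car4 and Ednrb. These markers define the large capillary cells of the alveolar surface, while Gpihbp1 marks the other capillary cells. The Car4 cells were those with 3 or more UMIs of Car4 and Ednrb and none of Gpihbp1, and Itgb5 stood at 391 CPM over 3101 of them (378 to 404). In 5781 Gpihbp1 cells it was 6.22 CPM (5.02 to 7.63), in 256 arterial cells 4.33 CPM and in 222 lymphatic cells 17.7 CPM. Itgb5 was higher in Car4 than in Gpihbp1 cells in 15 of 15 mice, with means of 369 ± 76.2 and 6.71 ± 3.76 CPM over mice. The mean difference of log2(CPM + 5) was 5.04 (two-sided sign-flip permutation test over 15 mice, p = 6.1e-05, the smallest it can give, unadjusted over the 6 members compared). That test was added after the values had been seen.

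The other members split the same capillary cells differently. Itgb3 was lower in Car4 cells in 12 of 15 mice and higher in none (1.34 ± 2.08 against 7.60 ± 6.21 CPM, permutation p = 0.000488). Itgb4 was lower in 9 mice and higher in 1 (1.07 ± 1.92 against 3.87 ± 3.49 CPM, permutation p = 0.0078). Itgav was higher in 10 and lower in 5 (34.0 ± 15.8 against 25.9 ± 8.41 CPM, permutation p = 0.15), a difference within the spread between mice. Itgb6 and Itgb8 had no UMI in any Car4 cell, which allows up to 0.335 CPM each.

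Itgb6 was an epithelial transcript in these libraries. Its level was 16.4 CPM in the AT2 gate (14.5 to 18.4) and 0.220 CPM in the endothelial gate (0.117 to 0.377), with no UMI in 1547 mesenchymal cells, which allows 0.398 CPM. AT2 cells lay above endothelial cells by a log2 fold change of 6.66 ± 0.37 (adjusted p = 6.63e-16). Their pooled level was 41.1-fold the mesenchymal floor of 3 UMIs over all libraries, a ratio that leaves out the counting error of the AT2 level. Its highest level among the finer gates was in AT1 marker cells, at 354 CPM (289 to 428), with 321 and 435 CPM in the 2 libraries holding 10 or more such cells. Krt8 and Cldn4 positive cells held 130 CPM (107 to 156), ranging from 66.4 to 224 CPM over 3 libraries, ciliated cells 35.2 CPM (23.7 to 50.2, with 18.0 and 181 CPM in 2 libraries), and club cells 6.16 CPM from 2 UMIs. Itgb6 and Itgav were thus both higher in AT1 marker and in Krt8 and Cldn4 positive cells than in the AT2 gate, with intervals that did not overlap. These gates rest on few cells, and no test over mice was made for them.

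Itgb8 was a mesenchymal transcript. No UMI of it was found in 1916 AT2 gate cells of any library, which allows 0.177 CPM, against 15.1 CPM (12.5 to 18.2) in the mesenchymal gate. That pooled level was 85.3-fold the AT2 floor of 3 UMIs, with the counting error of the mesenchymal level left out. Against the endothelial gate, where 6 UMIs gave 0.102 CPM, the log2 fold change was 6.52 ± 0.46 (adjusted p = 6.36e-13). Alveolar fibroblast marker cells had 16.2 CPM (12.5 to 20.7) and adventitial marker cells 14.3 CPM (8.19 to 23.3), and these did not differ beyond counting error. The 500 pericyte marker cells had none, and the pooled level of alveolar fibroblast marker cells was 7.23-fold their floor of 3 UMIs, again without the counting error of the higher level.

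Itgb3 and Itgb4 were sparse and did not pass the filter in the fit between gates. Itgb3 was 10.6 CPM in the mesenchymal gate (8.42 to 13.2), 6.26 CPM in the endothelial gate (5.64 to 6.93) and 4.43 CPM in the AT2 gate (3.49 to 5.56). Its highest level was in lymphatic endothelial cells, at 54.4 CPM (39.8 to 72.5), followed by AT1 marker cells at 23.6 CPM (9.49 to 48.6), an interval that overlapped the first. Itgb4 was highest in 95 ciliated cells, at 133 CPM (109 to 159), and the 2 libraries with 10 or more such cells gave 132 and 150 CPM. Lymphatic cells had 31.9 CPM (21.0 to 46.4) of Itgb4, Krt8 and Cldn4 positive cells 22.2 CPM (13.6 to 34.3), arterial cells 20.6 CPM (12.4 to 32.2), and the AT2 gate 0.591 CPM (0.284 to 1.09). Its level was 5.01 CPM in Gpihbp1 and 0.892 CPM in Car4 capillary cells, and 10 UMIs made up its whole AT2 signal.

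**Figure D1:**
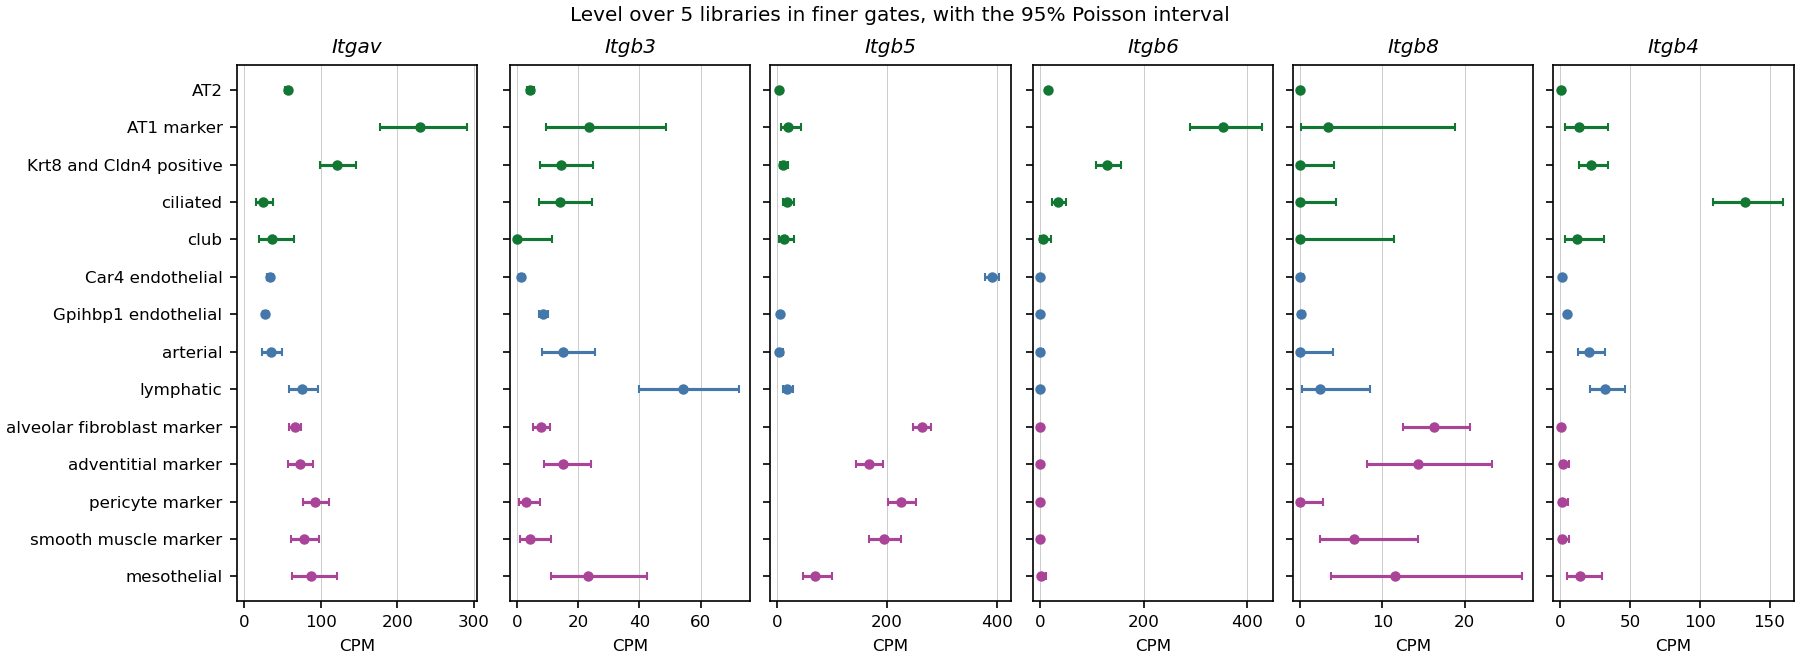
The x axes give the level of each member in CPM, with separate scales, over all 5 libraries in 14 gates (rows: epithelial in green, endothelial in blue, stromal in purple), and bars are 95% Poisson intervals. Itgb6 and Itgav reach 354 and 229 CPM in AT1 marker cells, Itgb5 reaches 391 CPM in Car4 endothelial cells against 6.22 CPM in Gpihbp1 cells, and Itgb4 reaches 133 CPM in ciliated cells.

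In the AT2 gate, the question was whether αv or β4 subunits changed when β1 was lost. None of the members was called at either time point. Of the 6 members, 2 passed the filter on low counts (Itgav and Itgb6), and 0 of these were called at day 7 (percent called over 5971 genes 1.59) and 0 at day 21 (3.75 over 8807 genes). Before adjustment, the p-values of edgeR's test were 0.72 for Itgav and 0.20 for Itgb6 at day 7, and 0.049 and 0.96 at day 21.

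Itgav stood at 39.4, 61.8 and 76.2 CPM in the day 7 LPS Itgb1 fl/fl mice (59.1 ± 18.5, n = 3) and at 83.0, 67.8 and 38.7 CPM in the Itgb1 iKO mice (63.2 ± 22.6, n = 3). The mice of the 2 genotypes overlapped fully, with a log2 fold change of 0.11 ± 0.31 (adjusted p = 0.95). At day 21 it stood at 50.1, 17.4 and 42.4 CPM in Itgb1 fl/fl mice (36.6 ± 17.1, n = 3) and at 66.3, 46.4 and 62.1 CPM in Itgb1 iKO mice (58.3 ± 10.5, n = 3). Of the Itgb1 iKO mice, 2 lay above all controls and 1 below the highest control, and the log2 fold change of 0.50 ± 0.24 did not pass edgeR's test (adjusted p = 0.31). Without the day 21 Itgb1 fl/fl mouse with RNA of both sexes it was 0.68 ± 0.27 (adjusted p = 0.25).

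As a share of cells, at least 1 Itgav UMI was found in 31.9% of day 7 Itgb1 fl/fl and 38.0% of day 7 Itgb1 iKO AT2 gate cells, and in 25.6% and 34.0% at day 21. Median depths of these cells were 8947, 7615, 11251 and 8312 UMIs. With cells thinned to 2000 UMIs the shares were 10.3% (95% interval 5.41 to 17.2), 15.6% (11.9 to 19.8), 6.86% (3.59 to 11.7) and 11.3% (9.63 to 13.2), where the intervals cover counting error over the cells of 1 library and give no test of genotype. Endothelial gate cells of the same libraries gave 5.38% to 8.47% at that depth, and no gate lacked Itgav, so no background share can be given.

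Itgb6 at day 7 stood at 13.8, 18.5 and 19.0 CPM in Itgb1 fl/fl mice (17.1 ± 2.90, n = 3) and at 29.7, 24.99 and 25.1 CPM in Itgb1 iKO mice (26.6 ± 2.65, n = 3). Every Itgb1 iKO mouse lay above every control (exact two-sided permutation p = 0.1, below which 3 against 3 mice cannot go), as the mice of 17.6% of the genes tested also failed to overlap. The sums rest on 3 to 21 UMIs per mouse, and the log2 fold change of 0.59 ± 0.46 did not pass the test (adjusted p = 0.69). In the same cells the summed level of 6 Krt8-associated transitional markers was 1488 and 2497 CPM and that of 6 AT1 markers 1438 and 2147 CPM in Itgb1 fl/fl and Itgb1 iKO, each list with all 6 markers detected, and their part in the Itgb6 values was not tested. At day 21 Itgb6 stood at 13.2, 5.80 and 17.8 CPM in Itgb1 fl/fl mice and at 7.96, 19.9 and 15.5 CPM in Itgb1 iKO mice (12.3 ± 6.05 and 14.5 ± 6.03, n = 3 each), and the groups overlapped (log2 fold change −0.02 ± 0.42, adjusted p = 0.99, and −0.03 ± 0.48 without the mouse with RNA of both sexes). The difference between the time points in the effect of genotype was −0.64 ± 0.65 for Itgb6 and 0.37 ± 0.43 for Itgav (adjusted p = 0.79 and 0.82), and 0 of these 2 members were called (percent called over all genes 0.63).

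The remaining β subunits were at 0 or low in AT2 cells of every condition and did not pass the filter. Itgb8 was at 0 in each mouse. Itgb5 ranged from 0 to 14.8 CPM per mouse, on at most 13 UMIs, with means of 6.54 and 7.57 CPM at day 7 and 3.78 and 3.93 CPM at day 21 in Itgb1 fl/fl and Itgb1 iKO mice, and the groups overlapped. Itgb3 was 2.71 and 6.14 CPM at day 7 and 1.79 and 4.92 CPM at day 21 in the same order, again with overlapping mice (two-sided exact permutation test, p = 0.3 at each time). Itgb4 had at most 2 UMIs in any tagged mouse. With no filter on low counts, edgeR gave Itgb3 log2 fold changes of 1.22 ± 1.121 and 1.21 ± 0.82 at days 7 and 21 (adjusted p = 0.85 and 0.63) and Itgb5 of 0.14 ± 0.88 and 0.40 ± 0.81 (adjusted p = 0.97 and 0.85), none of which was called.

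Whether the effect of genotype differed between AT2 and endothelial cells of the same libraries was tested as an interaction. For Itgav the difference was 0.11 ± 0.33 at day 7 and 0.54 ± 0.38 at day 21 (adjusted p = 0.99 and 0.69, and 0.72 ± 0.43 at day 21 without the mouse with RNA of both sexes), and for Itgb5 it was 0.80 ± 0.79 and 0.26 ± 0.77 (adjusted p = 0.88 and 0.96). Of the members, 0 of 5 tested were called at day 7 and 0 of 3 at day 21 (percent called over all genes 1.18 and 2.02). Itgb6 had no UMI in any day 21 endothelial mouse, so its interaction there could not be estimated and could not be called. At day 7 the standard errors of Itgb4 and Itgb6 were 2.24 and 2.06. Those rest on at most 1 Itgb4 UMI per mouse in AT2 cells and at most 2 Itgb6 UMIs per mouse in endothelial cells.

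LPS against PBS could be set side by side in AT2 cells of Itgb1 iKO mice only with 1 PBS mouse in the fit. Its mice held 51.8, 0 and 13.1 CPM of Itgav and 0, 0 and 26.1 CPM of Itgb6, on at most 2 UMIs each. The log2 fold changes were 2.13 ± 1.16 for Itgav and −0.09 ± 1.02 for Itgb6 (adjusted p = 0.63 and 0.99), and 0 of 2 members were called (percent called over all genes 0.201). These cells were too few to place the members before injury.

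**Figure D2:**
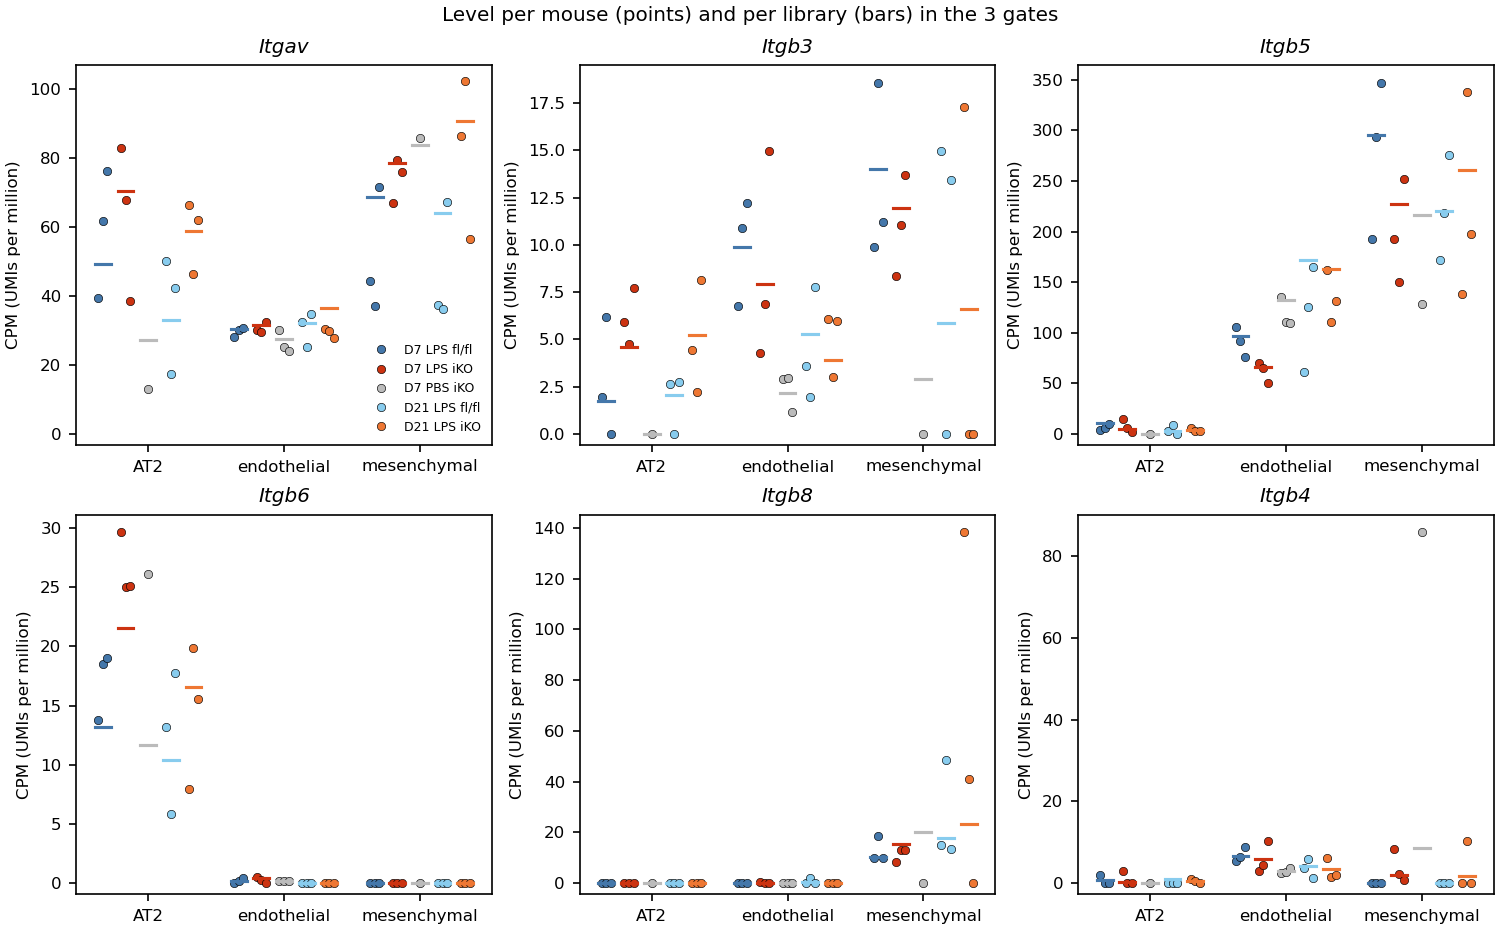
The y axes give the level of each member in CPM, with separate scales, in the 3 gates (x axis); points are mice that entered the fits and bars are the sums of whole libraries, coloured by condition. In AT2 cells the 3 day 7 LPS Itgb1 iKO mice sit between 24.99 and 29.7 CPM of Itgb6 and the controls between 13.8 and 19.0 CPM, while in endothelial cells Itgb5 sits between 49.8 and 69.6 CPM after LPS and between 109 and 136 CPM after PBS in day 7 Itgb1 iKO mice.

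The endothelial gate held the only calls of members between conditions, both in the comparison of LPS with PBS in day 7 Itgb1 iKO mice. Itgb3 rose and Itgb5 fell 7 days after LPS, 2 of the 4 members that passed the filter. Over all 11668 genes tested 26.8% were called, 14.5% higher and 12.3% lower, so changes were widespread and 2 of 4 members is to be read against that share.

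Itgb5 stood at 136, 110 and 109 CPM in PBS mice (118 ± 14.9, n = 3) and at 69.6, 64.9 and 49.8 CPM in LPS mice (61.5 ± 10.4, n = 3). The groups did not overlap, as was so for 42.9% of all genes, and Itgb5 fell by 1.04 ± 0.15 on the log2 scale (adjusted p = 0.000583). In the same mice the share of Car4 cells among endothelial gate cells was 10.3%, 12.4% and 12.2% after PBS and 6.50%, 6.69% and 7.76% after LPS, also without overlap. Within the Car4 cells alone, Itgb5 stood at 522, 387 and 342 CPM after PBS and at 405, 362 and 279 CPM after LPS, the mice overlapped, and the log2 fold change was −0.26 ± 0.17 (adjusted p = 0.46). Itgb5 in the whole gate and the share of Car4 cells were thus both lower, and the part of that share in the Itgb5 values was not tested. Over all libraries, Car4 cells held 3505 and Gpihbp1 cells 92 of the 6366 Itgb5 UMIs of the endothelial gate. The rest lay in endothelial cells of neither kind.

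Itgb3 stood at 2.91, 2.96 and 1.17 CPM in PBS mice (2.35 ± 1.02, n = 3) and at 4.29, 6.85 and 14.97 CPM in LPS mice (8.70 ± 5.58, n = 3). All LPS mice lay above all PBS mice, with LPS mouse 3 far above the others, and Itgb3 rose by 1.76 ± 0.48 on the log2 scale (adjusted p = 0.018). Without LPS mouse 3 the log2 fold change was 1.14 (adjusted p = 0.086), without PBS mouse 3 it was 1.44 (adjusted p = 0.065), and in Gpihbp1 cells alone 1.23 ± 0.50 (adjusted p = 0.14), so the call rests on single mice. Summed levels of 5 platelet markers in the gate were 3.48 CPM after PBS and 4.53 CPM after LPS, with all 5 detected. Summed levels of 6 mesenchymal markers, all detected, were 37.2 and 254 CPM, and their part in the Itgb3 values was not tested. Itgb4 had means of 2.97 ± 0.667 and 5.87 ± 3.94 CPM and Itgav of 26.4 ± 3.31 and 30.7 ± 1.49 CPM after PBS and LPS (log2 fold changes 0.89 ± 0.43 and 0.11 ± 0.11, adjusted p = 0.15 and 0.48), neither of which passed the test.

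Between genotypes 7 days after LPS, 0 of 4 members were called in endothelial cells (percent called over all genes 2.09). Itgb5 stood at 106, 92.2 and 76.0 CPM in Itgb1 fl/fl mice and at 69.6, 64.9 and 49.8 CPM in Itgb1 iKO mice (91.2 ± 14.8 and 61.5 ± 10.4, n = 3 each). The groups did not overlap, as was so for 21.9% of genes, and the log2 fold change of −0.59 ± 0.15 fell short of the threshold (edgeR adjusted p = 0.082). It passed with DESeq2 (−0.59, adjusted p = 0.023) and with no filter on low counts (−0.60, adjusted p = 0.025). The shares of Car4 cells were 12.6%, 13.2% and 13.0% in Itgb1 fl/fl and 6.50%, 6.69% and 7.76% in Itgb1 iKO mice (exact two-sided permutation p = 0.1), with Itgb5 at 404 ± 62.6 and 348 ± 63.9 CPM within them (n = 3 each, exact permutation p = 0.5). The same Itgb1 iKO mice serve in both day 7 comparisons. Itgb3, Itgb4 and Itgav had log2 fold changes of −0.22 ± 0.41, −0.25 ± 0.39 and 0.03 ± 0.11 and did not pass the test.

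At day 21 the share of Car4 cells among endothelial gate cells with 1 hashtag differed in the opposite direction. It was 12.6%, 17.0% and 19.4% in Itgb1 fl/fl mice and 36.8%, 24.6% and 27.6% in Itgb1 iKO mice (16.3 ± 3.48 and 29.7 ± 6.34 percent, n = 3 each, exact permutation p = 0.1, the smallest possible), and Itgb1 fl/fl mouse 1, with RNA of both sexes, held the lowest share. Itgb5 stood at 61.3, 126 and 165 CPM in Itgb1 fl/fl mice and at 162, 111 and 131 CPM in Itgb1 iKO mice (117 ± 52.5 and 134 ± 25.6, n = 3 each). The groups overlapped, and the log2 fold change was 0.14 ± 0.24 (adjusted p = 0.89). It was −0.16 ± 0.17 without the control mouse with RNA of both sexes and −0.34 ± 0.20 (adjusted p = 0.51) in Car4 cells alone. Summed over all control cells, tagged or not, Itgb5 was 172 CPM, above the mean over tagged mice. Car4 cells were 347 of all 1187 endothelial gate cells in Itgb1 fl/fl and 340 of all 879 in Itgb1 iKO. These shares were larger, and nearer each other, than those of the tagged cells. Of the 2 members tested, 0 were called (percent called over all genes 1.78). The gate for Car4 cells needs 3 UMIs, and the median depth of endothelial gate cells was 2428.5, 2490, 2231.5, 2219 and 1993 UMIs in the order fl/fl LPS, iKO LPS and iKO PBS at day 7, and fl/fl and iKO at day 21.

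**Figure D3:**
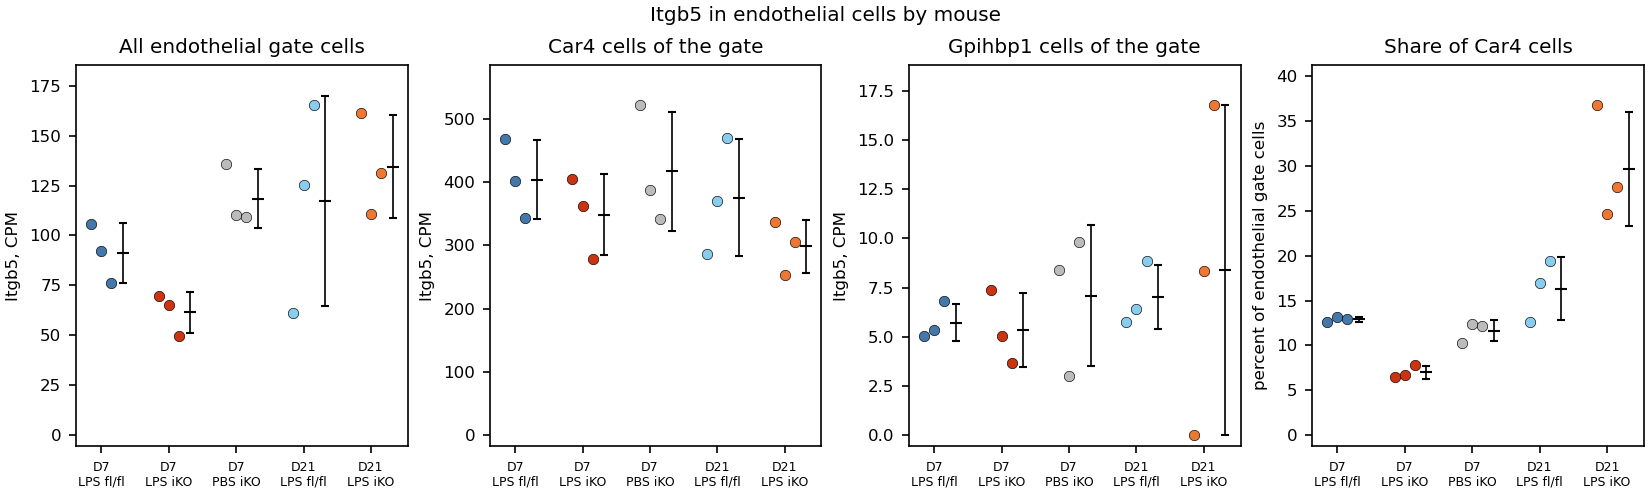
The y axes give Itgb5 in CPM in all endothelial gate cells, in Car4 cells and in Gpihbp1 cells, and the share of Car4 cells in percent; the x axis gives the 5 conditions, points are mice, and bars are the mean ± SD (n = 3). Day 7 LPS Itgb1 iKO mice have the lowest mean Itgb5 in the whole gate (49.8 to 69.6 CPM, a range that also holds 1 day 21 Itgb1 fl/fl mouse at 61.3 CPM) and the lowest Car4 shares (6.50% to 7.76%), while their Car4 cells (279 to 405 CPM) overlap those of every other condition.

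In the mesenchymal gate no member was called. The tests used singly tagged cells only. In Itgb1 fl/fl mice these were 38, 43 and 121 of 395 gate cells at day 7 and 26, 13 and 24 of 331 at day 21. In Itgb1 iKO mice after LPS they were 40, 76 and 161 of 553 at day 7 and 15, 24 and 8 of 165 at day 21. At day 7, 0 of 2 tested members passed between genotypes (percent called over all genes 0.0775), and 0 of 2 between LPS and PBS (0.0258). At day 21, 0 of 1 passed (0.427). Itgb5 stood at 193, 293 and 347 CPM in day 7 Itgb1 fl/fl mice and at 192, 150 and 252 CPM in Itgb1 iKO mice (278 ± 78.4 and 198 ± 51.2, n = 3 each), and the mice overlapped (log2 fold change −0.43 ± 0.25, adjusted p = 0.93). Itgav stood at 44.5, 37.1 and 71.7 CPM against 66.9, 79.4 and 75.9 CPM (51.1 ± 18.2 and 74.0 ± 6.45, n = 3 each), with 1 control among the Itgb1 iKO mice (0.51 ± 0.27, adjusted p = 0.91).

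At day 21 Itgb5 stood at 172, 218 and 275 CPM against 138, 338 and 198 CPM (222 ± 51.8 and 225 ± 103, n = 3 each; log2 fold change 0.14 ± 0.36, adjusted p = 0.91, and −0.11 ± 0.42 without the control mouse with RNA of both sexes). Itgav, which did not pass the filter there, stood at 37.4, 36.3 and 67.1 CPM in Itgb1 fl/fl mice and at 86.5, 102 and 56.5 CPM in Itgb1 iKO mice (two-sided exact permutation test, p = 0.2). Itgb8 stood at 9.88, 18.6 and 10.1 CPM in day 7 Itgb1 fl/fl, 8.36, 13.2 and 12.9 CPM in day 7 Itgb1 iKO, 14.9, 48.5 and 13.4 CPM in day 21 Itgb1 fl/fl and 138, 41.0 and 0 CPM in day 21 Itgb1 iKO mice. The last 3 values rest on 8, 4 and 0 UMIs, and the groups overlapped at both times (exact permutation p = 0.8 and 0.7). Against the lone PBS mouse, Itgb5 had a log2 fold change of 1.42 ± 0.71 and Itgav of 0.58 ± 0.81 (adjusted p = 0.42 and 0.81), and its Itgb4 level of 85.9 CPM rests on 2 UMIs. Itgb4 otherwise had at most 2 UMIs in any mouse of this gate, Itgb6 had none, and Itgb3 ranged from 0 to 18.6 CPM per mouse.

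**Figure D4:**
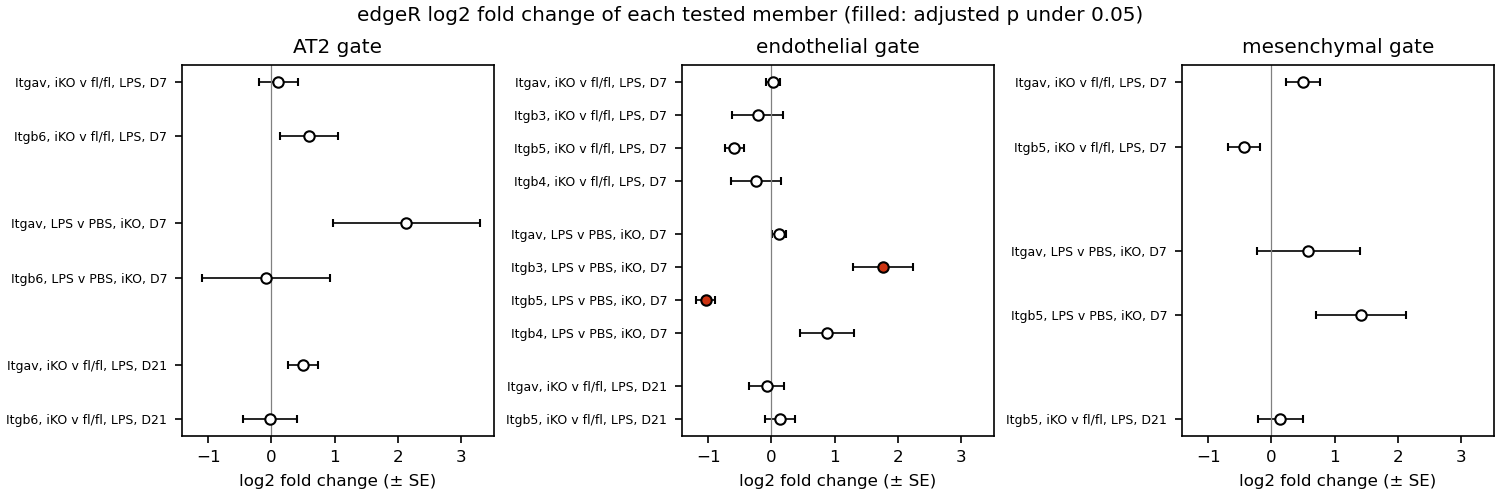
The x axes give the edgeR log2 fold change with its standard error for each member that passed the filter on low counts, by gate (panels) and comparison (rows), with filled points for an adjusted p under 0.05. The filled points are Itgb3 (1.76) and Itgb5 (−1.04) for LPS against PBS in the endothelial gate, and in AT2 cells the largest genotype differences are 0.59 for Itgb6 at day 7 and 0.50 for Itgav at day 21.

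Genes that work with these receptors were followed by 4 lists in the AT2 gate. Between genotypes at day 7, 0 of 5 tested of the 19 other integrin subunits were called, 1 of 5 tested of the 20 αv ligands and TGF-β genes, 0 of 10 tested of the 11 β4 partners, laminins and hemidesmosome genes, and 0 of 14 tested of the 20 integrin adaptors, beside 1.59% of all genes. The ligand gene that rose was Ltbp3, whose protein holds latent TGF-β in the matrix (0.93 ± 0.24, adjusted p = 0.048), but the adjusted p was 0.75 with DESeq2 and ran from 0.019 without Itgb1 fl/fl mouse 3 to 0.43 without Itgb1 fl/fl mouse 1, staying over 0.05 without any mouse other than the former. The median log2 fold changes of the 4 lists were −0.18, 0.93, 0.42 and 0.06, against −0.01 over all genes. In the order fl/fl LPS, iKO LPS and iKO PBS at day 7, and fl/fl and iKO at day 21, the α subunit gene Itga9 stood at 168, 169, 125, 190 and 197 CPM in AT2 library sums, the laminin receptor partner Cd151 at 82.9, 109, 81.8, 71.5 and 91.0 CPM, and the actin linker Vcl at 97.9, 126, 93.5, 77.7 and 113 CPM. In the same order Plec stood at 51.1, 105, 50.6, 76.7 and 117 CPM and Fermt2 at 110, 133, 97.4, 110 and 197 CPM.

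At day 21, the numbers called were 1 lower of 7 tested (Itgb1 itself), 1 higher of 7, 1 higher of 10 and 1 higher of 15, in the same order of lists and beside 3.75% of all genes, with medians of 0.05, 0.27, −0.03 and 0.16 against 0.00 over all genes. The genes that rose were Cyr61, a matrix ligand of αv integrins also known as Ccn1 (0.98 ± 0.19, adjusted p = 0.0030), Plec, the plectin that links β4 to keratin (0.54 ± 0.15, adjusted p = 0.042), and Fermt2, the kindlin-2 that activates integrin β tails (0.70 ± 0.14, adjusted p = 0.0025). With DESeq2 the adjusted p of Cyr61 and Plec were 0.17 and 0.063, and that of Fermt2 was 0.0016. The call of Cyr61 was also lost without Itgb1 fl/fl mouse 3 (0.61, adjusted p = 0.064), and that of Plec without Itgb1 fl/fl mouse 2 or 3 or Itgb1 iKO mouse 2 or 3 (adjusted p = 0.13, 0.21, 0.063 and 0.13). Cyr61 differed more in AT2 than in endothelial cells (interaction 1.46 ± 0.19, adjusted p = 4.00e-11), a call that DESeq2 did not make (1.43, adjusted p = 0.055). At day 7 the ligand gene Thbs1 was called in that interaction (1.08 ± 0.28, adjusted p = 0.017), again not with DESeq2 (adjusted p = 0.16).

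In endothelial cells, LPS against PBS moved the ligand list most. Of its 18 tested genes 10 rose and 2 fell, against 26.8% called over all genes, with a median log2 fold change of 0.86 against 0.02. Fn1 (fibronectin) rose by 3.81 ± 0.37, Tnc (tenascin C) by 4.38 ± 0.70, Fbn1 (fibrillin 1) by 2.66 ± 0.21 and Tgfb2 by 1.38 ± 0.30 on the log2 scale, while Lrrc32, which displays latent TGF-β on cells, fell by 0.53 ± 0.12 and Edil3, an αv ligand of endothelial cells, fell by 0.54 ± 0.11. Of the adaptors, 3 rose and 6 fell of 19 tested, led by Lims2 (−1.66 ± 0.12) and Tln2 (−0.997 ± 0.12). Of the other integrin subunits 4 rose and 2 fell of 10, and of the β4 list 1 rose (Lamc1, 0.61 ± 0.14) and 1 fell (Cd151, −0.49 ± 0.08) of 7. Mesenchymal markers, among them matrix genes, also stood at 254 CPM after LPS and 37.2 CPM after PBS in this gate, and their part in the ligand values was not tested. These endothelial genes were named after their values were seen. For LPS against PBS in AT2 cells, for genotype in endothelial cells and for comparisons between conditions in mesenchymal cells, 0 genes of the 4 lists were called.

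Across the 15 sums of library and gate, the genes whose log2(CPM + 5) ran most nearly with each member were compared among 8836 or 8837 genes, as a description over sums that share libraries. For Itgb5 these were Epb41l2, Ecm1 and Mpdz (Pearson r = 0.98 each), for Itgb6 Ripk4, 0610040J01Rik and Spint1 (r = 0.997, 0.992 and 0.991), and for Itgb8 Vit, Fgf7 and Abca8b (r = 0.997, 0.997 and 0.996). For Itgav they were Ibtk, Bmp5 and Pdgfa (r = 0.95, 0.93 and 0.93), for Itgb3 Cand1, Syncrip and Tm9sf3 (r = 0.87, 0.85 and 0.84), and for Itgb4 Ngdn, Dnajc11 and Slc30a9 (r = 0.91, 0.91 and 0.87). The members with the highest values are those found in 1 compartment, and the last 2 members were sparse in every sum.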

How the data were processed

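RNA was counted in 5 libraries of sorted mouse lung cells made with the 10x 5′ kit, and the deposited matrices hold UMI counts that the authors made with Cell Ranger 3.1 on mm10, with hashtag counts as further features. Cells with 700 or more genes and 0.1% to 15% mitochondrial UMIs were kept. A cell was given to a mouse where it carried 1 hashtag at 4 times background or more, and cells with more than 1 were left out of the tests, with no doublet caller run. No correction for ambient background RNA was run here, whereas the paper used SoupX for it. Counts were summed per mouse and gate (5 or more cells) and tested with edgeR 4.0.16 in R 4.3.3 (TMM, filterByExpr, quasi-likelihood F test, Benjamini-Hochberg adjustment over all genes), and DESeq2 1.42.0 was an alternative. Single values were compared by two-sided exact permutation over mice. The scripts were tested on simulated data. There, true 2-fold changes were called for 45.7% and 60% of altered genes in AT2 cells (genotype, days 7 and 21). The shares were 74% in endothelial cells (LPS against PBS) and 20% in mesenchymal cells (genotype, day 7). Altered genes were drawn from those with an expected mean of 5 or more UMIs per mouse, so these shares do not cover sparser members. Members that were not called may therefore still differ. Library totals ran from 8360954 to 29128331 UMIs, which sets the counting error of rare genes. A p-value measures the spread between mice of single libraries. The members and lists were chosen with earlier results of these data known. The 6 members were all named. From the gene lists, genes called between genotypes in AT2 cells were named and, where none was, the 2 of highest AT2 level. List genes named for other comparisons were chosen after their values were seen.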

Additional observations from a re-analysis of the deposited data

Results flagged for a closer look

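The genotype effect at day 21 differed between AT2 and endothelial gate cells of the same libraries for Itgb1 and Cyr61, tested as an interaction in edgeR. For Itgb1, the deleted gene, the difference of log2 fold changes was −1.408 ± 0.17 (adjusted p = 2.83e-13). For Cyr61, an αv ligand, it was 1.464 ± 0.19 (adjusted p = 4.00e-11), and with DESeq2 it was 1.43 (adjusted p = 0.055). At day 7 Thbs1, a matrix ligand that can activate TGF-β, differed in the same test by 1.078 ± 0.28 (adjusted p = 0.017). With DESeq2 this was 1.07 (adjusted p = 0.16), and leaving out any 1 mouse of the comparison other than Itgb1 iKO mouse 1 gave adjusted p-values of 0.054 to 0.21. No αv or β4 subunit gene was called in these tests, in which Itgb6 could not be estimated at day 21.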

How the results depend on the processing

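No paired analysis was possible because each condition is 1 library, and a mouse's number only follows the order of the hashtags and ties it to no mouse of another condition. This holds for comparisons between conditions, while those between gates kept the mouse as a block. Of the alternatives that leave out no mouse, 157 fold changes of members and Itgb1 kept their direction and side of the threshold, 8 reversed, 2 passed it and 2 no longer did. Those reversed in AT2 cells were Itgav at day 7 (−0.047 with Sftpc at 10% of UMIs, −0.126 with hashtags at 10 times background), Itgb6 for LPS against PBS (0.083 with no filter on low counts) and Itgb6 at day 21 (0.022 with no filter, 0.070 with the stricter hashtag, 0.261 without Krt8 and Cldn4 positive cells). Itgb5 reversed at day 21 in endothelial cells (−0.345 in Car4 cells, against 0.14 in the main fit) and in mesenchymal cells (−0.081 with no filter). The limits to Car4, to Gpihbp1 and to Krt8 and Cldn4 negative cells, and the fit with no minimum of cells, were chosen after seeing the data. With 10 cells a mouse the PBS arm gave no AT2 or mesenchymal value. Causes were not tested.

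Members called in endothelial cells were 2 for LPS against PBS, 0 in Car4 cells alone and 0 in Gpihbp1 cells alone, and for genotype at day 7 they were 0, or 1 (Itgb5) with no filter and 1 with DESeq2. Counts of all genes called moved by over 1.5 times as follows. With no filter on low counts they were 155 (from 95) and 22 (from 12) in AT2 cells for genotype and for LPS against PBS at day 7, 368 (from 244) and 319 (from 129) in endothelial cells for genotype at days 7 and 21, 188 (from 6), 251 (from 2) and 64 (from 7) in mesenchymal cells for genotype at day 7, LPS against PBS and genotype at day 21, and 95 (from 40) for the genotype effect in AT2 cells between days. With DESeq2 they were 33 in AT2 cells at day 7, 70 in endothelial cells at day 21, 128 and 11 in mesenchymal cells for LPS against PBS and at day 21, and 27 (from 141) and 42 (from 182) for the difference between AT2 and endothelial cells at days 7 and 21. The stricter hashtag gave 49 and 3 in AT2 cells at day 7 (genotype and LPS against PBS), leaving out Krt8 and Cldn4 positive cells gave 63, and no minimum of cells gave 36 in mesenchymal cells for LPS against PBS. Car4 cells gave 44, 335 (from 3129) and 22, and Gpihbp1 cells 93, 1113 and 25, for genotype at day 7, LPS against PBS and genotype at day 21.

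Leaving out 1 mouse at a time, genes called ranged from 45 to 121, 6 to 16 and 193 to 314 (from 330) in AT2 cells, 72 to 321, 2322 to 3220 and 42 to 179 in endothelial cells, and 3 to 35, 0 to 94 and 1 to 9 in mesenchymal cells, for genotype at day 7, LPS against PBS and genotype at day 21. They ranged from 72 to 117 and 134 to 157 for the difference between gates at days 7 and 21, and from 14 to 50 for that between days. Members called for LPS against PBS in endothelial cells ranged from 1 to 2. In each comparison between gates they ranged from 2 to 3, against 3 in the main fit. Log2 fold changes that changed sign ranged, for genotype, from −0.2325 to 0.334 (Itgav, AT2, day 7), −0.283 to 0.463 (Itgb6, AT2, day 21), −0.0044 to 0.053 (Itgav, endothelial, day 7), −0.841 to 0.101 (Itgb3, endothelial, day 7), −0.915 to 0.066 (Itgb4, endothelial, day 7), −0.189 to 0.037 (Itgav, endothelial, day 21), −0.164 to 0.512 (Itgb5, endothelial, day 21), −0.406 to 0.375 (Itgb5, mesenchymal, day 21) and −0.143 to 0.377 (Itgav, AT2 against endothelial, day 7). In AT2 cells Itgb3, Itgb4, Itgb5 and Itgb8 rest on 75, 10, 70 and 0 UMIs in all.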
